A study of Mus musculus with 8 samples.

Results

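The genes described here are the nuclear genes of oxidative phosphorylation in myeloid cells of the injured mouse sciatic nerve. Members were chosen by name: every gene that carried the same symbol in all 4 libraries and whose symbol began with Ndufa, Ndufb, Ndufc, Ndufs, Ndufv, Uqcr, Cox4i, Cox5, Cox6, Cox7, Cox8a or Atp5, with pseudogenes (-ps) left out. This gave 85 of the 30406 genes shared by the libraries, of which 38 belonged by name to complex I, 8 were assembly factors of complex I (Ndufaf1 to Ndufaf8), 8 belonged to complex III, 16 to complex IV and 15 to the ATP synthase. The rule used no measured value.

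CD45+ CD11b+ cells were sorted from sciatic nerves of male and female C57BL/6JolaHsd mice, bought at 7 weeks of age, and single cells were sequenced by the 10x method. The groups were nerves 15 weeks after partial sciatic nerve ligation (PSNL; 4 samples, F1, F2, M1 and M2), 15 weeks after nerve crush (3 samples, F1, F2 and M1), 1 week after PSNL (2 samples, F and M), 1 week after crush (2 samples, F and M) and 1 week after sham surgery, in which the nerve was exposed and left alone (2 samples, M and F). A sample is the set of cells that carried 1 hashtag antibody, and F and M give its sex. No genotype differed between groups, and no uninjured nerve was collected at 15 weeks. Whether a hashtag marked 1 mouse or a pool was not given in the sources used here, so p-values measure the spread between these samples.

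Oxidative phosphorylation takes place in the inner mitochondrial membrane. Complex I passes electrons from NADH to ubiquinone, complex III hands them to cytochrome c, complex IV passes them on to oxygen, and the ATP synthase uses the proton gradient that results. The mitochondrial genome encodes a few core subunits and the nucleus all others, so the complexes need both genomes. In macrophages and dendritic cells the balance between this pathway and glycolysis is known to change with activation.

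Promoters of some members called in the comparisons below are shown first, because factors that read them are known for their action on this gene set. Among 70 of the 85 members with a RefSeq window (GRCm38.p6; 250 bases before to 50 after the transcription start), the core of the NRF1 motif (CGCATGCG, the same on both strands) stood in 11, or 15.7%, against 2.07% of all 27025 genes with a window. An ETS core (CCGGAAG, either strand), the kind bound by GABPA, stood in 16 (22.9%, against 9.93%), and a YY1 core (AAGATGGC, either strand) in 10 (14.3%, against 3.19%). At least 1 of the 3 cores stood in 30 members (42.9%, against 14.1%), among them 13 of 33 for complex I, 7 of 13 for the ATP synthase, 3 of 5 for complex III and 3 of 12 for complex IV. No window of a member held an ETS and a YY1 core that overlapped. In the windows below, each read 5′ to 3′ on the strand of the gene, capitals mark these matches. Cox7a1 (chr7:30183921-30184220, plus strand) and Cox7a2l (chr17:83514284-83514583, minus strand), the members with the largest rise and the single fall in PSNL against crush samples at 1 week, held none of the 3. The window of Cox7a2l lies inside the gene span given for it further below, so the 5′ end of that span was not searched. Ndufc1 (chr3:51408906-51409205, minus strand) held a YY1 core 23 bases past the start, and Cox6a1 (chr5:115348909-115349208, minus strand) held an NRF1 core and an ETS core.
Cox7a1: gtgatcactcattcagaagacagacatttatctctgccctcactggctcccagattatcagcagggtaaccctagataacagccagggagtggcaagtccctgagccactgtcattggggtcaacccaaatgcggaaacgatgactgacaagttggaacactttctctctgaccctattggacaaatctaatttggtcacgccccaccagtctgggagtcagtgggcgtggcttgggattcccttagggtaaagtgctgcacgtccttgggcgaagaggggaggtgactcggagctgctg
Cox7a2l: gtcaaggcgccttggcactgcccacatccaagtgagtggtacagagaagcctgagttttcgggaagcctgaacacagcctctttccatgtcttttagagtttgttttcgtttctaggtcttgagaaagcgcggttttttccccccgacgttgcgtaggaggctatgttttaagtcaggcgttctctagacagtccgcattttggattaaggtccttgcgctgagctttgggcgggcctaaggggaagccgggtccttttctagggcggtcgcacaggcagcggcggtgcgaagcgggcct
Ndufc1: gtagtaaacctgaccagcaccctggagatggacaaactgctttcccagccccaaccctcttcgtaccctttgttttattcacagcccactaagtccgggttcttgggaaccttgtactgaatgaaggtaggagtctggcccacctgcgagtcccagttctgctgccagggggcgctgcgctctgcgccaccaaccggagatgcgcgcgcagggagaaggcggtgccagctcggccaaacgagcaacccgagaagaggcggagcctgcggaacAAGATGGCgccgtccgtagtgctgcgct
Cox6a1: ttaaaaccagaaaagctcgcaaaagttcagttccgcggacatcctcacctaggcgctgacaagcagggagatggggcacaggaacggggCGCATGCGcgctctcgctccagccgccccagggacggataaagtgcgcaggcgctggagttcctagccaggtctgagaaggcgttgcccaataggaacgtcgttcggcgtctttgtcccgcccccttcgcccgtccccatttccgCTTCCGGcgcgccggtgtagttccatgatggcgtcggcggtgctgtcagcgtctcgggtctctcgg

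After filtering, 6545 cells in 13 samples were kept, between 64 (sham F) and 1555 (crush 15 weeks M1) per sample, with 247765 to 15291150 UMIs (counted molecules) per sample. The median depth was 3084 to 5549 UMIs per cell in samples of 1 week and 6307 to 9303 in samples of 15 weeks, and 11 barcodes occurred in more than 1 library. Time after surgery coincided with batch, with the Cell Ranger version in the file headers and with the list of annotated genes. Between the lists some genes changed name, such as Atp5s of 1 week, which was Dmac2l at 15 weeks. Cells with Ly6G, a neutrophil surface protein, were sorted out at 1 week only. Time and these features cannot be told apart. Injury coincided with library, except that sham F was in the PSNL library and sham M in the crush library of 1 week. The 5 myeloid genes used to check the sort together measured 4591 CPM (counts per 1000000) or more in every sample, while T and NK cell markers stayed at or under 15.3 CPM, B cell markers at or under 28.0 CPM and skeletal muscle markers at or under 1.99 CPM. Schwann cell markers were higher, from 47.9 CPM (sham, 1 week) to 101 CPM (PSNL, 15 weeks). Fibroblast markers measured 14.1 and 73.6 CPM 1 week after PSNL, against 12.1 CPM or less after crush and sham surgery, and reached 48.2 CPM at 15 weeks. All 13 samples matched the sex in their label.

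Of the 85 members, 82 passed the filter on low counts. Cox4i2, the isoform of subunit 4 best known from lung, had 14 UMIs in all cells, Cox7b2 had 1 and Ndufa4l2, a relative of Ndufa4 that is induced by hypoxia, had 17, and these were not tested. Ndufa4l2 was listed at 2.37 and 1.93 CPM in PSNL samples of 1 week and at most 0.49 CPM in every other sample. The most counted member of each complex was Cox4i1, the common isoform of subunit 4 of complex IV (32038 UMIs), Atp5e, the epsilon subunit of the ATP synthase (30559), Uqcrh, the hinge protein of complex III (19544), Ndufa2 of complex I (14206) and, of the assembly factors, Ndufaf8 (2782). Ndufa4 is counted with complex I by its name, although its protein is known as a subunit of complex IV. The counts of Atp5o, Atp5g2, Ndufb2, Ndufb8 and Ndufb9 are uncertain, since exons of these genes overlap another annotated gene.

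Summed over all members, the genes took the largest share of UMIs 1 week after PSNL and the smallest 15 weeks after PSNL. The share was 1.17% (F1), 1.15% (F2), 1.14% (M1) and 1.36% (M2) 15 weeks after PSNL, and 1.44% (F1), 1.20% (F2) and 1.36% (M1) 15 weeks after crush. At 1 week it was 1.66% (F) and 1.85% (M) after PSNL, 1.55% (F) and 1.48% (M) after crush, and 1.63% (M) and 1.40% (F) after sham surgery. Both PSNL samples of 1 week lay above every other sample, and all 4 PSNL samples of 15 weeks lay below every sample of 1 week. Crush and sham samples of 1 week overlapped, as did PSNL and crush samples of 15 weeks. In a summed sample, fewer cells of a type and less RNA per cell cannot be told apart.

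**Figure D1:**
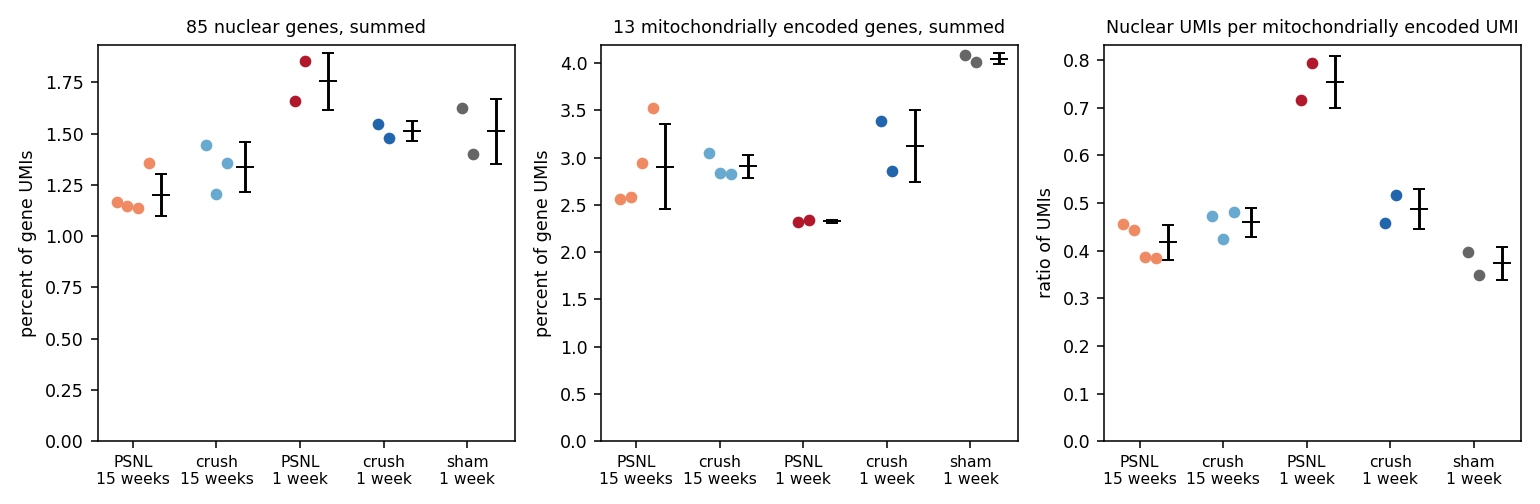
Summed share of gene UMIs (y axis, percent) of the 85 nuclear genes (left panel) and of the 13 genes of the mitochondrial genome (middle), and the ratio of both sums (right), with points for the 13 samples by group (x axis) and bars for the group mean ± SD. The PSNL samples of 1 week are highest on the left (1.66% and 1.85%) and lowest in the middle, so their ratios of 0.716 and 0.793 stand above all others.

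Genes of complex I, complex IV and the ATP synthase each had their highest mean share 1 week after PSNL and their lowest 15 weeks after PSNL. Complex I genes took 0.388% of UMIs 15 weeks after PSNL, 0.426% 15 weeks after crush, 0.534% 1 week after PSNL, 0.457% 1 week after crush and 0.470% after sham surgery (group means). Complex IV genes took 0.331%, 0.379%, 0.511%, 0.425% and 0.414% in the same groups, and ATP synthase genes 0.342%, 0.377%, 0.517%, 0.455% and 0.461%. Assembly factors did not follow them, with 0.0168%, 0.0178%, 0.0159%, 0.0145% and 0.0190%. Genes of the mitochondrial genome took 2.33% ± 0.0162 of UMIs 1 week after PSNL, against 3.12% ± 0.376 after crush and 4.05% ± 0.0582 after sham surgery (SD, n = 2 each). The ratio of nuclear to mitochondrial transcripts of the pathway was thus 0.716 and 0.793 after PSNL, against 0.457 and 0.517 after crush and 0.397 and 0.349 after sham surgery at 1 week, without overlap between the 3 groups.

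Other features of the libraries moved with these shares. Gm42418, a locus that collects ribosomal RNA reads, averaged 1.91% and 1.59% of UMIs 15 weeks after PSNL and crush, against 10.9%, 10.1% and 14.1% 1 week after PSNL, crush and sham surgery, and its part in the time differences was not tested beyond a change of denominator. With Gm42418, mitochondrial and ribosomal protein genes left out of the totals, the members' share was 1.47% ± 0.141 and 1.65% ± 0.158 at 15 weeks (PSNL, n = 4, and crush, n = 3), against 2.36% ± 0.162, 2.18% ± 0.182 and 2.28% ± 0.0625 at 1 week (PSNL, crush and sham, SD, n = 2 each). With that denominator PSNL (2.25% and 2.48%), crush (2.31% and 2.06%) and sham samples (2.32% and 2.24%) of 1 week overlapped, while every sample of 1 week stayed above every sample of 15 weeks. Cells that carried neutrophil markers made up 24.8% and 11.5% of PSNL samples of 1 week, 1.81% and 4.13% of crush samples and 12.4% and 1.56% of sham samples, and without them the share at 1 week was 1.84% after PSNL, 1.52% after crush and 1.53% after sham surgery.

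Set against sham surgery, PSNL at 1 week raised 1 member past the threshold (edgeR quasi-likelihood F-test, Benjamini-Hochberg adjusted p under 0.05) and lowered none, where 3.26% of all 11480 genes tested were higher and 1.99% lower. That member was Uqcrq, a small subunit of complex III (chr11:53427922-53430831, GRCm38). Uqcrq measured 408 and 470.2 CPM in PSNL samples, against 241 and 210.1 CPM in sham samples. The PSNL samples lay above both sham samples, and the log2 fold change was 0.95 (SE 0.19, edgeR adjusted p = 0.0158). The adjusted p was 0.0618 without sham M, 0.101 without sham F, 0.0958 without PSNL M and 0.1115 with the library as a term, which sets each sham sample against its own library. Of the 82 members, 68 had a positive log2 fold change, with a median of 0.33 beside 0.10 for all genes tested, 23 were higher and 1 lower at an unadjusted p under 0.05, and DESeq2 called 6 higher. By complex the median was 0.50 for complex IV, 0.34 for complex I, 0.30 for complex III, 0.22 for the ATP synthase and -0.14 for the assembly factors. Inside the PSNL library, both PSNL samples exceeded sham F in 67 of the 82 members, against 51.6% of all genes tested.

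No member passed the threshold between crush and sham surgery at 1 week. edgeR called 0 members in either direction, where 0.0697% of all genes tested were higher and 0.105% lower, and DESeq2 called 0. At an unadjusted p under 0.05, 0 members were higher and 1 lower, and the median log2 fold change was 0.00 beside 0.09 for all genes. Cox4i1, Atp5e and the other most counted members were not called either. Inside the crush library, both crush samples exceeded sham M in 17 members and lay below it in 48, against 42.8% and 33.6% of all genes tested.

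PSNL differed from crush at 1 week in 10 members. Of these, 9 were higher after PSNL and 1 lower, where 6.67% of all genes tested were higher and 5.71% lower. The 9 comprised Ndufa1, Ndufab1, Ndufb4, Ndufb9, Ndufc1 and Ndufs5 of complex I, the assembly factor Ndufaf3, Uqcrb of complex III and Cox7a1 of complex IV, while Cox7a2l was lower. No ATP synthase gene was called, although their median log2 fold change was 0.30. The median over all 82 was 0.34 beside -0.02 for all genes tested, and DESeq2 called 25 higher and 1 lower. Leaving out 1 sample left 3 calls without PSNL F, 1 without PSNL M, 3 without crush F and 2 without crush M.

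Ndufab1, which is both a complex I subunit and the mitochondrial acyl carrier protein, measured 133 and 163 CPM in PSNL samples, against 87.3 and 85.3 CPM in crush samples and 93.1 and 100.7 CPM in sham samples. Both PSNL samples stood above the 4 others, with a log2 fold change over crush of 0.78 (SE 0.17, edgeR adjusted p = 0.0129). Ndufc1, an accessory subunit of complex I, measured 221 and 272 CPM after PSNL, against 173 and 126 CPM after crush and 149 and 136 CPM after sham surgery (0.73 over crush, SE 0.19, edgeR adjusted p = 0.0290). Ndufa1, a small accessory subunit, measured 251 and 278 CPM, against 162 and 169 CPM after crush (0.68, SE 0.20, edgeR adjusted p = 0.0443). Here too the PSNL samples were the highest of the 6 at 1 week. Uqcrb, which binds ubiquinone in complex III, measured 324 and 402 CPM after PSNL, against 235 and 222 CPM after crush and 264 and 232 CPM after sham surgery (0.67 over crush, SE 0.17, edgeR adjusted p = 0.0245). Ndufs5 was at 163 and 189 CPM, against 113 and 112 CPM after crush (0.64, SE 0.20, edgeR adjusted p = 0.0494). Each of the 5 lost its call when some samples were left out: Ndufa1 and Ndufs5 without any 1 of the 4, Ndufab1 and Uqcrb without crush F, crush M or PSNL M, and Ndufc1 without crush M, PSNL F or PSNL M. All 5 lost it with the library as a term (edgeR adjusted p = 0.225 to 0.504).

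The largest difference between the injuries among the called members at 1 week lay in the isoforms of subunit 7a of complex IV. Cox7a1 (chr7:30184144-30186078) encodes the isoform known from heart and skeletal muscle, and Cox7a2 (chr9:79755361-79759878) the one found in most tissues. Cox7a2l (chr17:83501918-83517330) encodes a relative that has been described as joining complex III to complex IV in supercomplexes. Whether its protein does so in this mouse strain was not tested. Cox7a1 was rare: it measured 14.2 and 20.8 CPM after PSNL (30 and 86 UMIs), against 1.97 and 3.36 CPM after crush (4 and 11 UMIs) and 7.03 and 13.1 CPM in sham M and sham F (4 and 3 UMIs). The PSNL samples lay above all others at 1 week, and the log2 fold change over crush was 2.66 (SE 0.42, edgeR adjusted p = 0.00226). Over sham surgery it was 0.97 (edgeR adjusted p = 0.30). Skeletal muscle markers were at 0 in sham samples and at or under 1.99 CPM elsewhere.

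Cox7a2 measured 399 and 486 CPM after PSNL, against 261 and 283 CPM after crush and 258 and 249.5 CPM after sham surgery, and its log2 fold change over crush was 0.70 (edgeR adjusted p = 0.056). Cox7a2l went the other way, with 194 and 205 CPM after PSNL, against 303 and 377 CPM after crush and 264 and 258 CPM after sham surgery. Both PSNL samples were the lowest of the 6, and the log2 fold change over crush was -0.77 (SE 0.17, edgeR adjusted p = 0.0136). The call was lost without crush M (0.128), PSNL F (0.0814) or PSNL M (0.0859) and with the library as a term (0.307). As a ratio of UMIs, a measure chosen after the values were seen, Cox7a2l over Cox7a2 stood at 0.485 and 0.422 after PSNL, against 1.16 and 1.33 after crush and 1.02 and 1.04 after sham surgery. At 15 weeks the ratio was 1.29, 1.48, 1.21 and 1.01 after PSNL and 1.01, 1.28 and 1.14 after crush, so that only the PSNL samples of 1 week lay below 1.

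**Figure D2:**
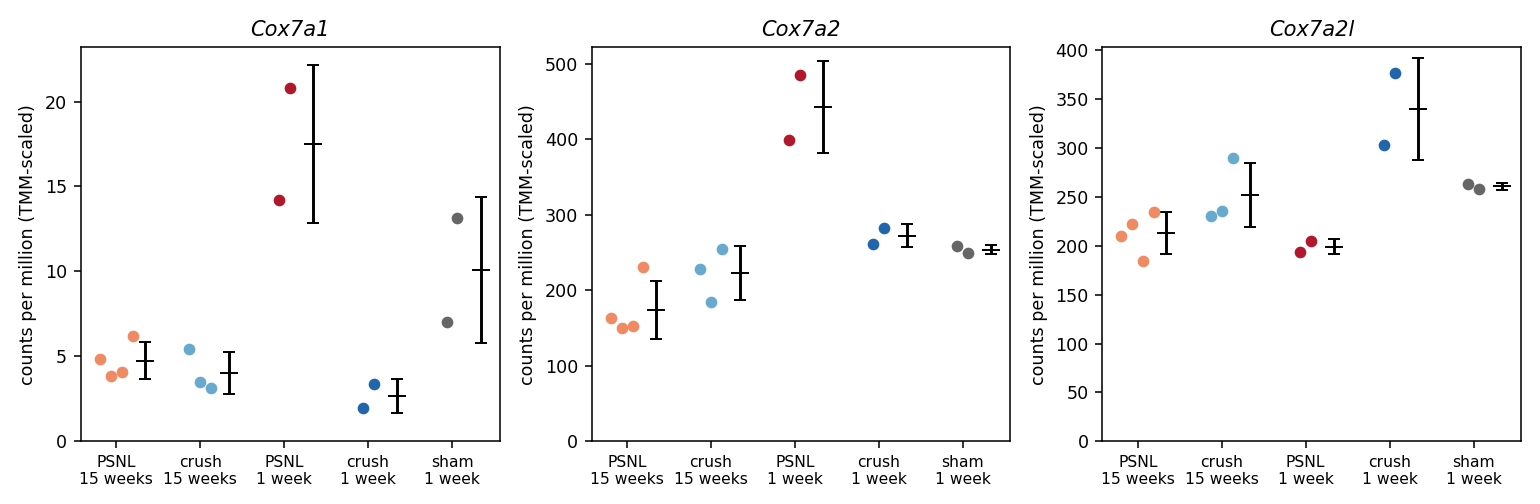
Levels of Cox7a1, Cox7a2 and Cox7a2l (one panel each; y axis, TMM-scaled CPM from 0) in the 13 samples by group (x axis), with points for samples and bars for the group mean ± SD. In the PSNL samples of 1 week Cox7a1 (14.2 and 20.8 CPM) and Cox7a2 (399 and 486 CPM) are highest, while Cox7a2l, at 194 and 205 CPM, lies below the other samples of 1 week.

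The other isoform sets gave no call at 1 week. Cox6a1, the common isoform of subunit 6a, Atp5g1, Atp5g2 and Atp5g3, which encode the same mature c subunit of the ATP synthase, and Ndufa4 all missed the threshold in the 3 comparisons of that time. Cox6a2, the muscle isoform of subunit 6a, had 0 UMIs in both sham samples, and no fold change is given for it.

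Genes that work beside the members moved by different amounts at 1 week. Of 14 glycolysis genes, 9 were higher after PSNL than after crush and 0 lower, with a median log2 difference of 1.34, and 8 were higher than after sham surgery. Pkm, the last kinase of glycolysis, measured 866 and 1076 CPM after PSNL, against 281 and 239.8 CPM after crush and 341 and 158 CPM after sham surgery, and Slc2a1, the glucose transporter GLUT1, 79.1 and 79.6 CPM, against 15.3 and 14.7 CPM after crush and 22.8 and 8.76 CPM after sham surgery. Of 78 genes of the mitochondrial ribosome, 6 were higher after PSNL than after crush and 0 lower (median 0.33). Genes of the mitochondrial genome did not share the direction: against crush, mt-Atp8 was higher (1.12, edgeR adjusted p = 0.0383) and mt-Co1 lower, at 3542 and 3696 CPM after PSNL, against 6433 and 6255 CPM after crush (-0.81, edgeR adjusted p = 0.0158). No complex II gene was called at 1 week.

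Markers of other myeloid cells also differed at 1 week, and their part in these differences was not tested across whole samples. All 5 markers of Spp1 Arg1 macrophages together measured 9321 to 11763 CPM after PSNL, against 982 to 2372 CPM after crush and 605 to 917 CPM after sham surgery, and markers of resident macrophages 302 to 476 CPM, against 408 to 557 CPM and 1606 to 2809 CPM. With the library as a term in the fit, which the sham samples allow, 0 members were called after PSNL against crush, with 12 higher and 1 lower at an unadjusted p under 0.05.

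At 15 weeks PSNL and crush could not be separated on any member. edgeR and DESeq2 called 0, where 0% of all genes tested were higher and 0% lower, and at an unadjusted p under 0.05 0 members were higher and 9 lower. The median log2 fold change was -0.21 beside -0.01 for all genes, 4 of 82 members had a positive one, and the groups did not overlap in 0 higher and 3 lower members, beside 2.84% and 2.83% of all genes tested. Cox7a1 was at 4.84, 3.84, 4.07 and 6.22 CPM after PSNL and at 5.42, 3.47 and 3.15 CPM after crush. Medians of the 5 roles lay between -0.26 (complex IV) and -0.18 (assembly factors).

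Between the 2 times after PSNL, most members fell. At 15 weeks 69 of 82 members were lower than at 1 week and 1 was higher, where 27% of all genes tested were lower and 29.3% higher. The median log2 fold change was -0.88 beside 0.03 for all genes. Falls covered all 8 members of complex III, 33 of 37 of complex I, 14 of 15 of the ATP synthase and 11 of 14 of complex IV, but 3 of 8 assembly factors. Leaving out any 1 sample left 56 to 70 members lower.

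Among members of at least 50 CPM, Ndufb6, an accessory subunit of complex I, had the largest fall, with 32.4, 36.9, 44.9 and 54.1 CPM at 15 weeks, against 117 and 149 CPM at 1 week (log2 -1.66, SE 0.28, edgeR adjusted p = 0.00027). Cox5a, a subunit of complex IV that all tissues use, measured 118, 118, 111 and 148 CPM, against 339.6 and 406 CPM (-1.59, SE 0.21, edgeR adjusted p = 4.72e-05). For both genes the highest sample of 15 weeks was M2, and it too lay far below both samples of 1 week. Cox7b, another subunit of complex IV, measured 147, 166, 142 and 165 CPM, against 370.4 and 513 CPM (-1.51, SE 0.17, edgeR adjusted p = 1.26e-05). Ndufc1 measured 81.5, 83.5, 80.0 and 107 CPM, against 221 and 272 CPM (-1.49, SE 0.16, edgeR adjusted p = 9.95e-06). Uqcrq, the member that PSNL had raised over sham surgery, measured 151, 158, 156 and 179 CPM, against 408 and 470.2 CPM (-1.45, SE 0.15, edgeR adjusted p = 7.57e-06), which is also below both sham samples of 1 week. The rare Cox7a1 fell further, by 1.91 (SE 0.31, edgeR adjusted p = 0.000213).

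The most counted members fell as well. Atp5e measured 413, 438, 403 and 490.03 CPM at 15 weeks, against 1032 and 1204 CPM at 1 week (log2 -1.36, SE 0.14, edgeR adjusted p = 7.58e-06), and Cox4i1 444, 450.05, 457 and 599 CPM, against 786 and 949 CPM (-0.83, SE 0.18, edgeR adjusted p = 0.00195). Uqcrh (-0.77), Ndufa2 (-1.15) and Ndufaf8 (-0.72) were also called lower. Isoforms differed in how far they fell: Atp5g1 (-1.19) and Atp5g3 (-1.09, 84.9, 78.7, 77.9 and 119.8 CPM, against 165 and 219 CPM) passed the threshold, while Atp5g2, at 239, 264, 241 and 319.8 CPM, against 307 and 371 CPM, did not (-0.35, edgeR adjusted p = 0.11). Cox6a1 (-1.13) and Cox7a2 (-1.34) were called, and Cox7a2l (0.10, edgeR adjusted p = 0.60) was not. The one member that rose was Ndufaf7, a methyltransferase that acts on complex I during its assembly, at 29.8, 26.9, 24.6 and 28.0 CPM, against 14.7 and 13.5 CPM (0.95, SE 0.22, edgeR adjusted p = 0.00267). The 12 members that missed the threshold were Ndufs1, the largest subunit of complex I, Ndufa10, Ndufs4, Ndufs7, Ndufaf1, Ndufaf2, Ndufaf5, Ndufaf6, Cox6a2, Cox6b2, Cox7a2l and Atp5g2.

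After crush, fewer members passed the threshold between the times. At 15 weeks 25 of 82 were lower than at 1 week and 2 higher, where 18.5% of all genes tested were lower and 24% higher, with a median log2 fold change of -0.35 beside 0.01. The 25 were 8 of 15 ATP synthase members, 7 of 37 of complex I, 5 of 14 of complex IV, 4 of 8 of complex III and 1 assembly factor. Leaving out 1 sample gave 9 calls without crush F of 1 week, 14 without crush M of 1 week and 13 without crush F2 of 15 weeks, against 27 with all samples.

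Of the called members Cox5a fell most, at 173, 93.8 and 149 CPM at 15 weeks, against 327 and 263 CPM at 1 week (log2 -1.08, SE 0.23, edgeR adjusted p = 0.00241). Uqcrq measured 207, 139 and 185 CPM, against 297 and 306 CPM (-0.77, SE 0.16, edgeR adjusted p = 0.00271), and Atp5f1, subunit b of the stator of the ATP synthase, 188, 149 and 166 CPM, against 269 and 282 CPM (-0.72, SE 0.15, edgeR adjusted p = 0.00209). In all 3 genes the times did not overlap, and F2 was the lowest sample of 15 weeks. Uqcrfs1, the Rieske iron-sulfur protein of complex III, measured 68.1, 52.9 and 60.9 CPM, against 119 and 85.6 CPM (-0.74, SE 0.18, edgeR adjusted p = 0.00514), a call lost without crush F of 1 week (0.0870). The 2 that rose were Ndufaf2, an assembly chaperone of complex I, at 36.0, 29.3 and 30.5 CPM, against 20.7 and 20.8 CPM (0.62, SE 0.21, edgeR adjusted p = 0.0316), and Ndufs4, a late-joining subunit of complex I, at 81.3, 83.3 and 81.0 CPM, against 70.0 and 56.9 CPM (0.37, SE 0.14, edgeR adjusted p = 0.0435). Ndufaf2 lost its call without crush F or M of 1 week or crush F1 of 15 weeks. Ndufs4 lost its call without crush M of 1 week (edgeR adjusted p = 0.343) or any 1 sample of 15 weeks (0.0713 without F1, 0.0795 without F2, 0.0513 without M1), with no count filter (0.116) and with a sex term (0.0517).

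**Figure D3:**
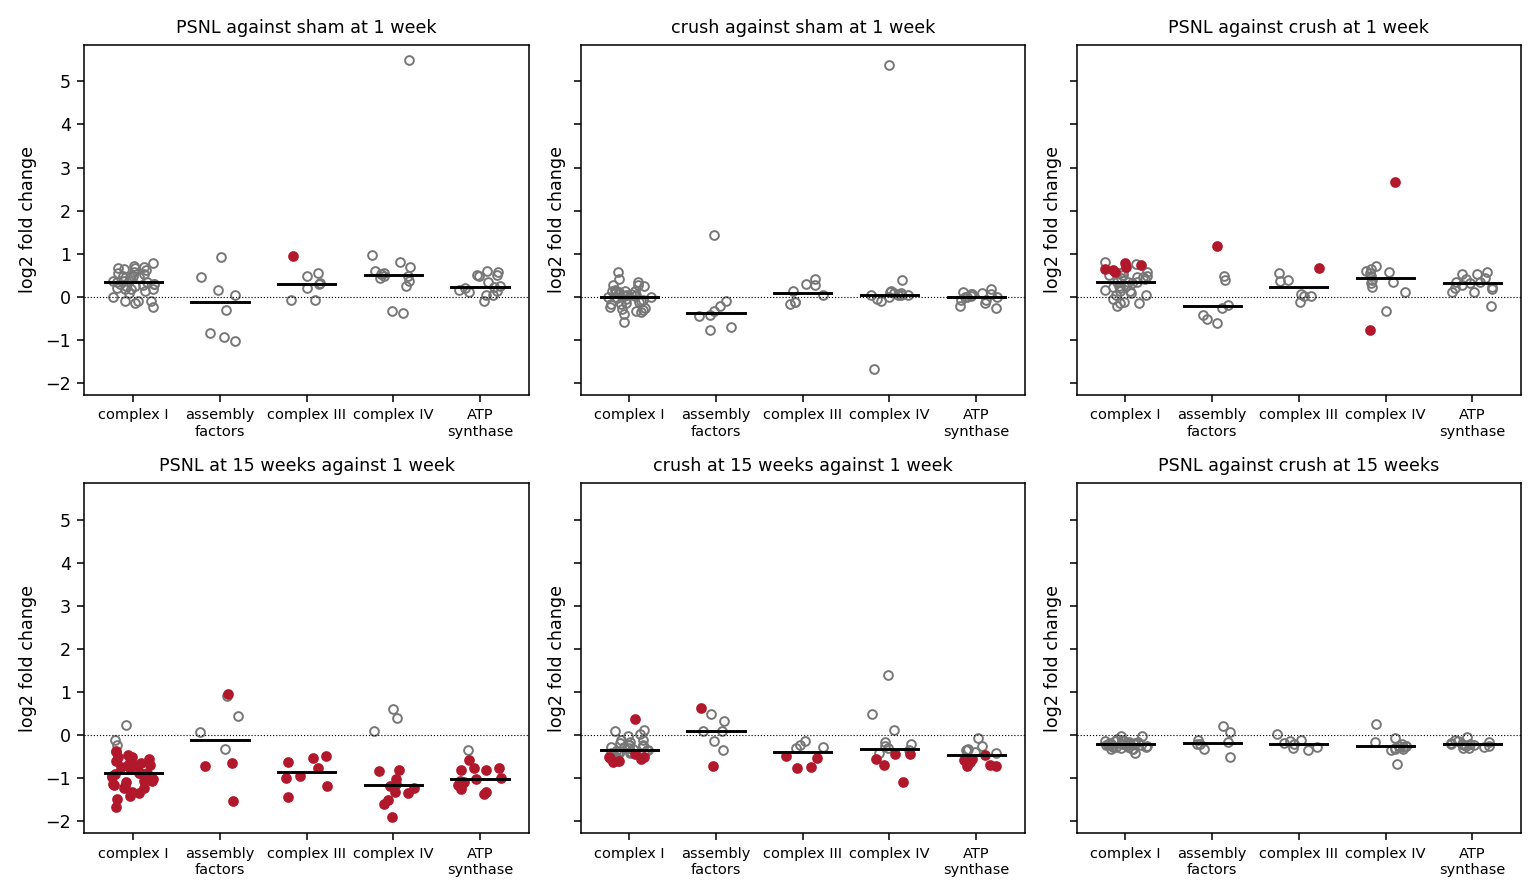
Log2 fold change (y axis) of each of the 82 members tested, by complex (x axis), with a panel for each comparison of whole samples; filled points passed an adjusted p under 0.05, open points did not, and lines give the median of each complex. Filled points fill the panel of PSNL at 15 weeks against 1 week (69 lower, 1 higher) and are missing for both crush against sham and PSNL against crush at 15 weeks. The open points above 5 in the sham panels are Cox6a2, which had 0 UMIs in sham samples, so that its fitted value is no measure of size.

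The log2 change with time was lower after PSNL than after crush for 14 members and higher for 0, as tested by the difference of the differences, where 4.36% of all genes tested were lower on this contrast and 3.44% higher. They were 7 complex I genes (Ndufa1, Ndufa7, Ndufab1, Ndufb3, Ndufb4, Ndufb5 and Ndufc1), the assembly factor Ndufaf3, Uqcrb, and 5 complex IV genes (Cox5b, Cox6b1, Cox7a1, Cox7a2 and Cox7c). Cox7a1 had the largest difference, at -2.41 on the log2 scale (SE 0.52, edgeR adjusted p = 0.017), with -1.91 after PSNL and 0.50 after crush (edgeR adjusted p = 0.46), followed by Ndufaf3 (-1.38) and Ndufc1 (-1.06). No ATP synthase gene was among them. PSNL against crush at 1 week, PSNL at 15 weeks against 1 week and this contrast share the same PSNL samples of 1 week.

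Lists that work beside the members fell with them at 15 weeks to different degrees. Glycolysis genes had 13 of 14 lower after PSNL (median -2.10) and 6 after crush (-0.59), and the mitochondrial ribosome 63 of 78 lower and 1 higher after PSNL (-0.88) and 23 lower and 1 higher after crush (-0.39). Cycs, cytochrome c itself, measured 47.6, 59.5, 47.7 and 51.0 CPM 15 weeks after PSNL, against 211 and 284 CPM at 1 week (-2.27). Complex II had 3 of 4 genes lower after PSNL (-0.69) and 0 after crush. Genes of the mitochondrial genome had a median of -0.00 after PSNL, with 3 of 13 lower, and of -0.16 after crush, with 1 lower. Cytosolic ribosomal proteins, which work outside the mitochondrion, had 49 of 81 lower and 4 higher after PSNL (-0.43) and 61 lower and 1 higher after crush (-0.56). Among regulators of mitochondrial genes, Nrf1, whose motif the promoters above were searched for, rose with time after PSNL, at 85.2, 86.1, 82.4 and 66.0 CPM, against 25.1 and 25.2 CPM (1.67, edgeR adjusted p = 0.000129), and also after crush (1.42), while Yy1 fell after both (-0.61 and -0.74). Gabpa fell after crush (-0.66, edgeR adjusted p = 0.0045). Of the 9 regulators tested, 3 were higher and 1 lower with time after PSNL, and 1 was higher and 2 were lower after crush. Some rises with time were steep. The mean of Rpl13a went from 98.59 to 1049 CPM after PSNL and from 154.7 to 1139 CPM after crush. That of Mrpl53 went from 0.1529 to 15.43 CPM after crush. The list of annotated genes also changed with time, and its part in these rises and in the changes of members and Nrf1 was not tested.

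Cells were also grouped by marker genes, so that members could be compared between kinds of myeloid cell within the same samples. A cell passed a gate when it held at least 3 of its markers and 10 marker UMIs per 10000, and cells of several gates were left out. Of the 6545 cells, 1329 were microglia-like macrophages by this rule (Cx3cr1, Tmem119, P2ry12 and others), 646 lipid-laden macrophages (Gpnmb, Fabp5, Lpl, Mmp12), 519 dendritic cells (Cd209a, Flt3, Clec10a and others), 394 resident macrophages (Mrc1, Cd163, Lyve1 and others), 285 Spp1 Arg1 macrophages, 283 neutrophils and 118 monocytes, while 1528 passed no gate and 1286 several. By median over samples with at least 20 such cells, the members' share ran from 2.01% in monocytes (range 1.70% to 2.22%, 3 samples) over 1.93% in lipid-laden macrophages (1.54% to 2.09%, 5 samples), 1.77% in Spp1 Arg1 macrophages (1.66% and 1.89%), 1.54% in dendritic cells (1.27% to 2.21%, 8 samples), 1.21% in microglia-like macrophages (1.10% to 1.59%, 9 samples) and 1.07% in resident macrophages (0.892% to 1.22%, 9 samples) to 0.800% in neutrophils (0.685% to 0.814%, 3 samples). Migratory dendritic cells reached 20 cells in PSNL M of 1 week only, at 1.66%. These medians pool samples of different injuries and weeks, and monocytes, Spp1 Arg1 macrophages and neutrophils were counted at 1 week only. Within PSNL M of 1 week the order was dendritic cells 2.21%, lipid-laden macrophages 2.06%, monocytes 2.01%, Spp1 Arg1 macrophages 1.89% and neutrophils 0.814%, and within crush F1 of 15 weeks lipid-laden macrophages 2.09%, dendritic cells 1.72%, microglia-like macrophages 1.27% and resident macrophages 0.892%. Neighbours in the pooled order overlapped, except that neutrophils lay below resident macrophages. The gated neutrophils had median depths of 1752 to 1836 UMIs per cell, under those of all other gates.

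**Figure D4:**
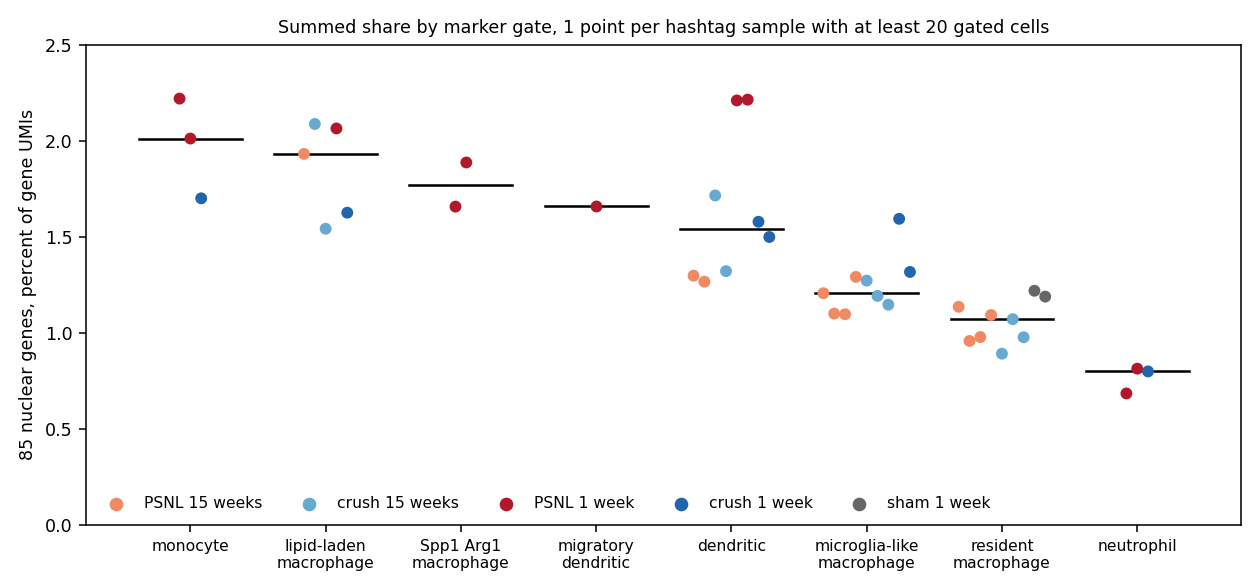
Share of gene UMIs taken by the 85 members (y axis, percent, from 0) in cells of each marker gate (x axis), with 1 point per sample that had at least 20 cells in the gate, coloured by group, and a line at the median. Monocytes (1.70% to 2.22%) and neutrophils (0.685% to 0.814%) are the extremes, and within the dendritic gate both PSNL samples of 1 week, at 2.21%, lie above the 6 others.

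At 15 weeks transcripts of most members were higher in lipid-laden than in microglia-like macrophages. With sample as a block, 59 of 76 members tested were higher and 1 lower, where 15% of all genes tested were higher and 13.4% lower, and the members' median log2 difference was 0.68. All 15 ATP synthase members rose, with 29 of 37 of complex I, 10 of 12 of complex IV and 5 of 8 of complex III, but 0 of 4 assembly factors. Cox5a measured 407.7, 183 and 262 CPM in the 3 samples with lipid-laden cells (crush F1, crush M1, PSNL M2), against 91.4 to 120.1 CPM in microglia-like cells of the 7 samples (log2 1.47, SE 0.18, edgeR adjusted p = 1.23e-06). Atp5g3 (1.27), Ndufb6 (1.25), Uqcrfs1 (1.07, edgeR adjusted p = 0.117 with a stricter gate of 4 markers and 20 UMIs per 10000) and Cox6a1 (1.06) followed. Of the 7a isoforms, Cox7a2 was higher (1.04, SE 0.16, edgeR adjusted p = 4.83e-05) and Cox7a2l was not called (0.02, edgeR adjusted p = 0.94). Cox6b2, an isoform known from testis, was the one lower, with 2.81, 2.88 and 0.00 CPM in lipid-laden cells, against 6.23 to 17.8 CPM (-1.64, SE 0.50, edgeR adjusted p = 0.0151), a call lost without crush M1 (0.168), with HTODemux (0.0691) and with the stricter gate (0.0766). Crush M1 held 521 of these cells, and without it 41 members were higher and 0 lower. Glycolysis had 10 of 13 genes higher (1.32) and the mitochondrial genome 0 of 13 called (-0.09).

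Resident macrophages at 15 weeks were lower than microglia-like macrophages in 23 of 76 members and higher in 0, where 9.2% of all genes tested were lower and 7.71% higher (median -0.31, 7 samples with both). The 23 were 8 complex I genes, 7 of the ATP synthase, 6 of complex IV, 1 of complex III and 1 assembly factor. Cox7a2l fell most (-0.75, SE 0.13, edgeR adjusted p = 0.000207), with 144 to 222 CPM, median 166, in resident cells, against 226 to 309.7 CPM, median 287, in microglia-like cells. The 2 kinds of cell did not overlap in Cox7a2l. Uqcrh (-0.73, SE 0.11, edgeR adjusted p = 5.17e-05), Ndufaf8 (-0.74), Ndufab1 (-0.63), Ndufc2 (-0.59) and Cox4i1 (-0.56) were also lower. Ndufab1 lost its call in 8 settings (edgeR adjusted p = 0.2496 and log2 -0.30 with the stricter gate, 0.0759 by DESeq2, and without crush F1, crush M1, PSNL F2, PSNL M1 or PSNL M2), and Ndufaf8 with the stricter gate (0.0526) and without crush F1 (0.0633) or crush M1 (0.0665). Of 13 genes of the mitochondrial genome 7 were higher in resident cells, and 78 cytosolic ribosomal protein genes were lower. Calls numbered 12 without crush M1, 13 without crush F1 and 14 without PSNL M2.

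Dendritic cells carried more than resident macrophages in 44 of 73 members and less in 0, where 23.3% of all genes tested were higher and 22.3% lower (median 0.73, 4 samples, all of 15 weeks). In complex IV 11 of 12 members rose, with 12 of 15 of the ATP synthase, 14 of 36 of complex I, 5 of 8 of complex III and both assembly factors tested. Cox6b2 had the largest difference (2.43, SE 0.48, edgeR adjusted p = 0.000504): it measured 46.2, 30.8, 34.4 and 29.8 CPM in dendritic cells (PSNL F2, PSNL M1, crush F1, crush M1), against 10.3, 8.44, 4.61 and 7.15 CPM in resident cells of these samples. Every dendritic value lay above every resident one, although the resident values rest on few UMIs. Uqcrfs1 (1.78), Cox7b (1.33), Ndufa6 (1.33), Atp5d (1.29) and Cox7a2l (1.18, SE 0.19, edgeR adjusted p = 8.62e-05) followed. All 13 genes of the mitochondrial genome were lower in dendritic cells (median -1.11), 8 glycolysis genes were higher and 0 lower, and 80 of 81 cytosolic ribosomal protein genes were higher. Calls fell to 29 without crush F1.

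At 1 week neutrophil-gated cells carried less of most members. These are the cells of that gate that remained after cells with Ly6G had been sorted out. Against Spp1 Arg1 macrophages, 49 of 74 members were lower and 1 higher, where 23.9% of all genes tested were lower and 21.5% higher, with a median of -1.24 beside -0.25 for all genes. The 49 comprised 27 of 37 complex I members, 11 of 15 of the ATP synthase, 7 of 11 of complex IV and 4 of 8 of complex III. Uqcrb measured 21.6 and 59.5 CPM in neutrophils of the PSNL samples and 0 in those of crush M, against 303 and 376 CPM in Spp1 Arg1 cells (-2.85, SE 0.40, edgeR adjusted p = 3.95e-06). Atp5g2 measured 21.6, 54.9 and 39.1 CPM, against 259 and 309.7 CPM (-2.63, SE 0.37, edgeR adjusted p = 4.03e-06). Ndufv1, the flavin subunit that takes electrons from NADH, had the largest fall (-2.90, SE 0.79, edgeR adjusted p = 0.00455). It measured 0, 4.58 and 19.6 CPM in neutrophils of PSNL F, PSNL M and crush M, against 37.6 and 43.0 CPM. Ndufaf7 was the single rise, at 25.2, 32.0 and 97.8 CPM, against 6.27 and 5.74 CPM (2.67, SE 0.71, edgeR adjusted p = 0.00374). The neutrophil levels of both Ndufv1 and Ndufaf7 rest on few UMIs. Neutrophil calls numbered 24 without PSNL F and 31 without PSNL M, and Ndufaf7 and Ndufv1 lost theirs in either case. Of the mitochondrial genome 12 genes were lower, and of cytosolic ribosomal proteins 70 were lower and 2 higher.

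**Figure D5:**
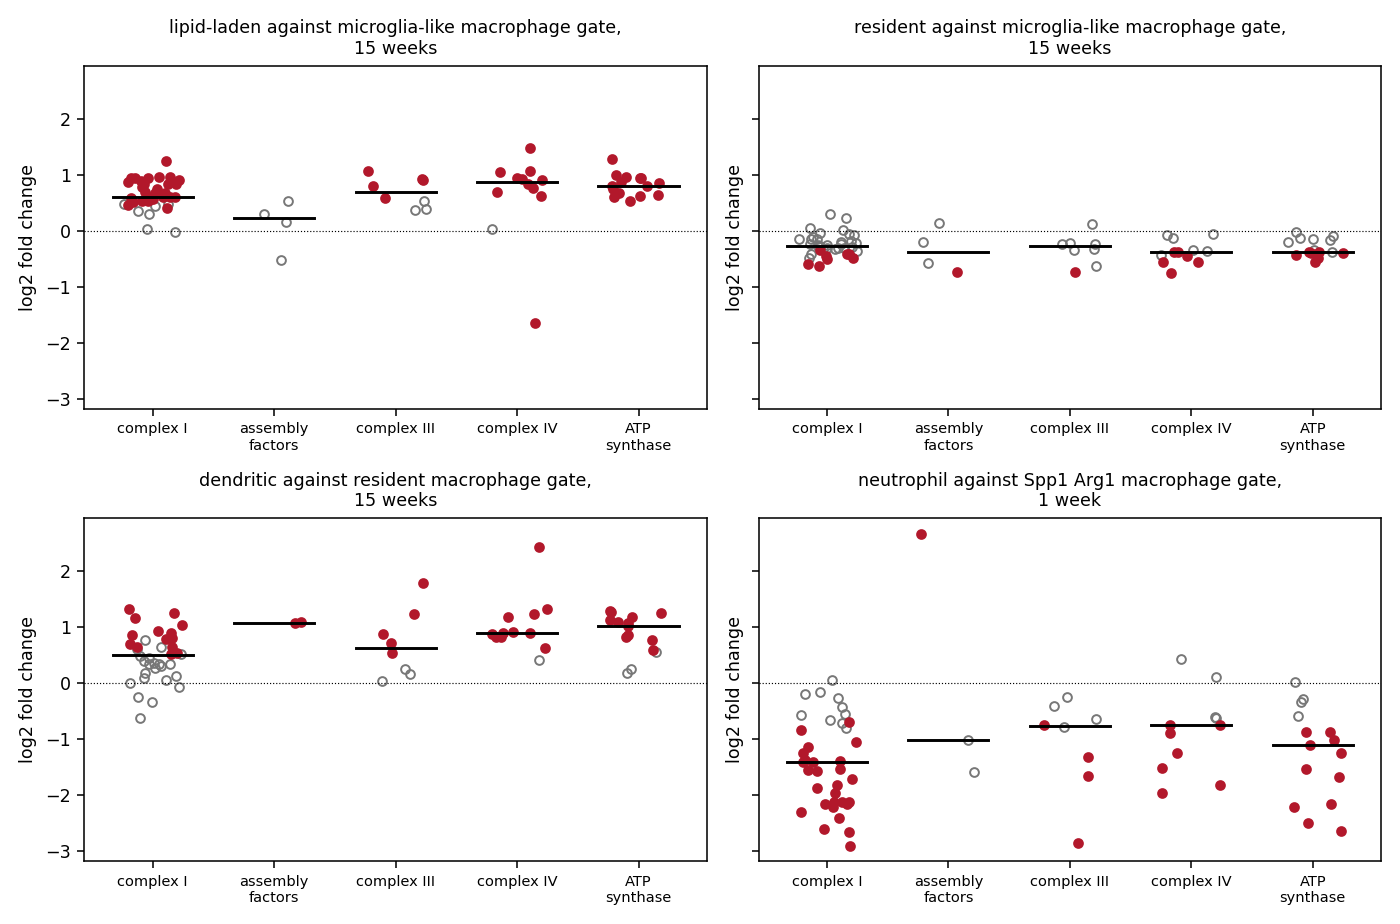
Log2 difference (y axis) of each member tested, by complex (x axis), with a panel for each of 4 comparisons between marker gates; filled points passed an adjusted p under 0.05, open points did not, and lines give the median of each complex. Most points lie above 0 in lipid-laden against microglia-like macrophages (59 higher, 1 lower) and in dendritic cells against resident macrophages (44 higher), and below 0 in neutrophils against Spp1 Arg1 macrophages (49 lower, 1 higher).

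Dendritic cells and Spp1 Arg1 macrophages of 1 week differed in few members, with 2 of 74 higher and 0 lower, where 11.6% of all genes tested were higher and 13.3% lower (median 0.24). Ndufa6, an accessory subunit of complex I, measured 559.7 and 561 CPM in dendritic cells of PSNL F and M and 389 and 372 CPM in those of crush F and M, against 207 and 189 CPM in Spp1 Arg1 cells (1.35, SE 0.27, edgeR adjusted p = 0.000427). Cox7a2l measured 273 and 288 CPM in PSNL and 371 and 447 CPM in crush dendritic cells, against 136 and 145 CPM (0.81, SE 0.27, edgeR adjusted p = 0.0320). Both genes lay above the Spp1 Arg1 cells in every dendritic sample. Without PSNL M the adjusted p of Ndufa6 was 0.0792, and that of Cox7a2l was 0.376 without PSNL M, 0.276 without PSNL F and 0.144 with no count filter. Calls ran from 0 without PSNL M to 8 without crush M. In the same comparison 11 glycolysis genes were lower in dendritic cells and 0 higher.

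The contrast between the injuries was also measured inside single gates. In dendritic cells of 1 week the members' share was 2.21% and 2.21% after PSNL, against 1.58% and 1.499% after crush, and 71 of 77 members had a positive log2 fold change (median 0.58). edgeR called 0 of them, where 0.284% of all genes tested were higher and 0.174% lower, with 40 higher and 0 lower at an unadjusted p under 0.05, and DESeq2 called 1 higher. Without crush F1 of 15 weeks, or without crush M1 of 15 weeks (both enter the fit, not the contrast), 8 were called. The Cox7a2l to Cox7a2 ratio was 0.722 and 0.762 in dendritic cells after PSNL, against 1.68 and 1.86 after crush, 0.3403 and 0.3527 in Spp1 Arg1 cells, and 0.646 and 0.500 in neutrophils after PSNL, against 1.73 in neutrophils of crush M. Inside gates, ratios below 1 also occurred outside PSNL at 1 week. Lipid-laden macrophages had 0.472, 0.951 and 0.660 in crush F1, crush M1 and PSNL M2 of 15 weeks, and 1.06 in crush F of 1 week. Dendritic cells of 15 weeks ranged from 0.963 to 2.09, resident macrophages from 0.81 to 1.86 and microglia-like macrophages from 1.19 to 1.68. Cox7a1 measured 18.8 and 24.9 CPM in Spp1 Arg1 cells and 0 to 3.08 CPM in dendritic cells. In resident macrophages it was at 16.5 and 23.9 CPM in sham F and M, whose whole samples held 3 and 4 UMIs. Resident macrophages of 15 weeks had 0 to 18.5 CPM. Lipid-laden macrophages ranged from 3.49 to 20.8 CPM, monocytes from 6.62 to 15.15 CPM and microglia-like macrophages from 0 to 7.15 CPM. In microglia-like cells of 15 weeks edgeR and DESeq2 called 0 of 79 members between PSNL and crush, where 0% of all genes tested were higher and 0% lower, and 0 passed an unadjusted p under 0.05 (median -0.06).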

How the data were processed

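The authors deposited UMI counts per gene and cell and hashtag counts per cell for 4 libraries, made with Cell Ranger (6.0.0 in the headers of 1 week, 7.0.0 in those of 15 weeks; the submitters' notes name 6.0.0, Seurat 5.1.0 and GRCm38). Whether intron reads were counted was not given in the sources used here. Of 9133 barcodes, those with a single hashtag above the minimum of its density, at least 500 genes and under 10% mitochondrial UMIs were kept; only hashtag doublets were removed. Counts were summed per sample (and per gate with at least 20 cells) and tested with edgeR 4.0.16 (quasi-likelihood F-test, TMM, filterByExpr, 5 groups in 1 fit, Benjamini-Hochberg over all genes tested, threshold 0.05) in R 4.3.3, after a check on simulated data. CPM of members use TMM library sizes in whole samples and plain totals in gates, and shares use plain totals. Python 3.11.15, scipy 1.17.1 and scikit-learn 1.9.0 served the cell filters. Alternatives were DESeq2 1.42.0, Seurat 5.3.0 HTODemux, other filters, library or sex terms and leaving out each sample. Members, gene lists and tests were chosen with earlier results of these data known, and 5 comparisons between or within gates were added after the cell counts were seen, because the planned Spp1 Arg1, neutrophil and cycling against resident comparisons had no sample with 20 cells in both gates. Genes were named by rule: up to 5 rises and 5 falls per comparison among called members that did not overlap and reached 50 CPM, the most counted member of each complex, isoform sets, members called against the common direction, and up to 4 genes of each list. Ndufaf3, Ndufb4, Ndufb9, Ndufa7, Ndufb3, Ndufb5, Cox5b, Cox6b1 and Cox7c were named as called members outside this rule, after their values were seen, for these comparisons. The hashtag without a label in the crush library of 15 weeks (110 UMIs) was not used. Gene positions are from GENCODE vM21 and promoters from RefSeq, both on GRCm38.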

Additional observations from a re-analysis of the deposited data

Results flagged for a closer look

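In the 4 samples 15 weeks after PSNL, M2 stood apart from F1, F2 and M1 by a gap test on the range, with a summed share of 1.356%, Cox4i1 at 599.2 CPM, Atp5g3 at 119.8 CPM, Cox7a2 at 231.5 CPM, Ndufa4 at 240.5 CPM and Ndufc1 at 106.7 CPM, and M1 did so for Ndufa4l2 at 0.214 CPM. The Ndufa4l2 value is 1 UMI of a gene that failed the filter on low counts. The flagged values are 7 of 42 groups examined, of which chance flags about 1 in 20, and the members are summed over the same cells. M2 also had the largest share of lipid-laden macrophages among these samples (5.83%, against 1.04%, 1.24% and 2.12% in F1, F2 and M1), and its part in the result was not tested.

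The change from 1 to 15 weeks differed between PSNL and crush in 14 members by the test of the difference, all with a lower log2 change after PSNL (Cox7a1 at -1.91 after PSNL and 0.50 after crush). For 7 of them the log2 differences were -2.414 for Cox7a1, -1.065 for Ndufc1, -1.055 for Cox7a2, -0.9878 for Ndufab1, -0.9557 for Ndufa1, -0.9434 for Uqcrb and -0.7652 for Ndufb5. PSNL samples of 1 week enter each of them, and their library, time and batch cannot be told apart.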

How the results depend on the processing

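Across the settings run no named member reversed, 735 values kept their side of the threshold and 87 lost it. PSNL against sham gave 1 call, and 2 with HTODemux, 6 with DESeq2, 13 with the looser cell filter (200 genes, 20% mitochondrial), 2 without neutrophil-gated cells, 3 with a sex term, 0 with the library as a term and 0 to 1 without 1 sample (0 without sham M, sham F or PSNL M). PSNL against crush at 1 week gave 10, and 16 with HTODemux, 6 with no count filter, 26 with DESeq2, 0 with the library term and 1 to 3 without 1 sample; Cox7a1 kept its call except with the library term (1.65, edgeR adjusted p = 0.506). PSNL at 15 weeks against 1 week gave 70, or 57 (without PSNL M of 1 week) to 72 under the settings run, and crush gave 27, or 9 to 31 without 1 sample. Dendritic against resident gave 44, and 28 with HTODemux, 29 with DESeq2, 20 with the stricter gate (4 markers, 20 UMIs per 10000) and 29 to 43 without 1 sample. PSNL against crush within the dendritic gate gave 0, and 5 with HTODemux, 3 with no count filter, 1 with DESeq2 and 0 to 8 without 1 sample. Neutrophil against Spp1 Arg1 gave 50, or 24 to 50 without 1 sample, dendritic against Spp1 Arg1 2, or 4 with DESeq2 and 0 to 8 without 1 sample, and resident against microglia-like 23, or 12 to 23 without 1 sample. With Gm42418, mitochondrial and ribosomal rows out of the totals the summed share was 1.474% and 1.647% 15 weeks after PSNL and crush and 2.363%, 2.184% and 2.280% 1 week after PSNL, crush and sham surgery; as a mean of single cells it was 1.206% 15 weeks after crush and 1.604%, 1.400% and 1.333% in the groups of 1 week. The cause of these differences was not tested.

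Samples F1, F2 and M1 of 15 weeks share numbers across injuries, but their deviations correlated at 0.082, 0.162 and 0.112, so the numbers were not taken as pairs. With the replicate number as a block PSNL against crush at 15 weeks gave 0 calls by edgeR, with 0 members higher and 32 lower at an unadjusted p under 0.05. Leaving out sham M shifted the median of all genes by 0.16 on the log2 scale for PSNL against sham, and dropping the count filter by 0.14 and 0.20 for the time comparisons after PSNL and crush.

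Depth limits the sham arm (64 and 105 cells) and rare members such as Cox7a1. Groups of 2 samples, 1 library per injury and time, and the batch and gene list behind time limit every comparison above.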
